A study of Mus musculus with 16 samples.

Results

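Galectins are carbohydrate-binding proteins, and the measurements below concern the genes of 4 of them, Lgals1, Lgals3, Lgals8 and Lgals9, with Lgals3bp, the gene of a secreted partner of galectin 3. These 5 genes were found by symbol among the 53700 rows of the deposited count files, of which 29343 had a count in at least 1 library, and all 5 passed the filter on low counts. Their Ensembl identifiers are ENSMUSG00000068220 for Lgals1, ENSMUSG00000050335 for Lgals3, ENSMUSG00000033880 for Lgals3bp, ENSMUSG00000057554 for Lgals8 and ENSMUSG00000001123 for Lgals9. RNA came from microglia, the resident macrophages of the brain, which were taken mechanically at 4 °C from whole brain and sorted as DAPI-negative, CD11b-high, CD45-intermediate, Ly6C-negative cells. The mice were labelled wild type (WT) or knockout (KO) for Ercc1, a subunit of a DNA repair nuclease, at 6 or 12 weeks of age, and all groups shared a mixed C57Bl6J and FVB background. Every genotype had 4 libraries at either age, 16 in all, from 2 males and 2 females at 6 weeks and from 3 males and 1 female at 12 weeks, as labelled. The allele behind the KO label is not given in the labels, nor whether each library came from a separate animal, so p-values measure the spread between these libraries, which may be technical.

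Galectins bind sugars with a terminal or internal galactose on cell-surface and lysosomal glycoproteins. They are made in the cytosol, leave the cell without a signal peptide, and can cross-link receptors outside it. Galectin 1 acts as a pair of identical subunits, galectin 3 has a sugar-binding domain and a long tail through which it forms clusters, and galectins 8 and 9 each carry different sugar-binding domains in 1 chain. Inside the cell, galectins 3, 8 and 9 gather on damaged endosomes and lysosomes, whose inner glycans become exposed. Galectin 3 is known as a marker of microglia that respond to disease, ageing or demyelination, and Lgals3bp is known as an interferon-responsive gene that encodes a heavily glycosylated secreted protein.

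Stretches of the start regions of Lgals3bp and Lgals9, 2 members that were higher in KO, are shown beside those of Lgals3, the member with the largest fold, and Lgals8, the member whose groups overlapped. Promoters of 300 bases (250 before and 50 after the start) were found in the RefSeq table for 4 of the 5 genes. The letters are from RefSeq, build GRCm38.p6, read 5′ to 3′ on the strand of each gene. Capitals mark a match to an interferon-response element (ISRE: GAAA, any 2 bases, GAAA) or to the shorter core bound by interferon regulatory factors (IRF, AANNGAAA), on either strand.
Lgals3bp, bases -60 to -1, chr11:118401960-118402019, minus strand: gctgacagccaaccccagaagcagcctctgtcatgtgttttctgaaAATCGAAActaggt
Lgals9, bases -60 to -1, chr11:78984925-78984984, minus strand: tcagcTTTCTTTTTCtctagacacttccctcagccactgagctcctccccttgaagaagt
Lgals9, bases 6 to 35, chr11:78984890-78984919, minus strand: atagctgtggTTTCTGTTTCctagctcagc
Lgals3, bases -60 to -1, chr14:47373800-47373859, plus strand: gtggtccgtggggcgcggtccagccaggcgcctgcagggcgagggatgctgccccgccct
Lgals8, bases -60 to -1, chr13:12461739-12461798, minus strand: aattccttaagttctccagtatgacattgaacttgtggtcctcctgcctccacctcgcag

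The Lgals9 window held 2 ISRE matches, both read on the strand opposite to the gene, and 3 IRF core matches, of which 2 lie inside the ISRE matches. The Lgals3bp window held 1 IRF core match, 14 to 7 bases before the start, and no ISRE match. Among 32851 promoters of the same length, 3.44% held an ISRE match and 23.9% an IRF core match, and every ISRE match contains a core match. Also searched on both strands were the GAS element (TTCNNNGAA, in 8.3% of promoters), a PU.1 site (GAGGAAGT, 3.2%) and an AP-1 site (TGANTCA, 7.81%). None of these 3 was found in the 4 windows, and the windows of Lgals3 and Lgals8 held none of the 5 motifs. The motifs were chosen after the promoters had been seen, and a match is a description of letters, not of binding.

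Total counts ran from 7882182 to 22142972 per library, so that 3 counts, used as the detection floor, stood for 0.136 to 0.381 CPM (counts scaled by library size). Ercc1 averaged 18.8 CPM in WT and 3.63 CPM in KO at 6 weeks, and 20.7 and 4.28 CPM at 12 weeks, with every KO library below every WT library of its age. The summed level of 10 microglia markers lay between 51360 and 78530 CPM in all libraries. On principal components of all genes, replicates 3 and 8 of 12-week WT stood apart from the other libraries, at -155 on the second and -132.5 on the third component, and 12-week KO replicate 4 lay at -72.5 on the third. The 12-week WT library labelled 5_6 as male held both Xist, the RNA of the inactive X chromosome, at 350 CPM and Y-linked genes at 113 CPM. Whether it holds RNA of more than 1 animal is not stated, and it was counted as 1 male library. Smaller signals against the label were seen in 12-week WT replicate 4 (male, Xist at 11.4 CPM) and 12-week KO replicate 3 (female, Y-linked genes at 10.1 CPM). KO was compared with WT at each age in 1 edgeR quasi-likelihood fit of all 16 libraries with a term for sex, and adjusted p-values are Benjamini-Hochberg values over 17090 genes from that fit. In bulk RNA, fewer cells of a type and less RNA per cell cannot be told apart.

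Lgals1, Lgals3, Lgals3bp and Lgals9, 4 of the 5 genes, had every KO library above every WT library at both ages. Lgals3 and Lgals3bp rose at 6 and at 12 weeks, Lgals1 and Lgals9 passed the test at 12 weeks and not at 6 weeks, and Lgals8 passed at neither age. The count was thus 2 of 5 genes higher and 0 lower at 6 weeks, where 0.796% of all genes tested were called higher and 0.872% were called in either direction. At 12 weeks it was 4 of 5 higher and 0 lower, where 2.03% of all genes were called higher and 2.98% in either direction. Groups that do not overlap, with KO above WT, were seen for 4.92% of all genes at 6 weeks and 5.13% at 12 weeks. An exact permutation test of each gene (two-sided, mean log2 of CPM plus 1) reached its smallest possible p, 0.0286, in 8 of 10 tests of genotype, and 0.0635 after adjustment over all 20 tests of genotype and age. With 4 against 4 libraries, groups that do not overlap always reach that p, so these 8 results restate the lack of overlap.

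**Figure D1:**
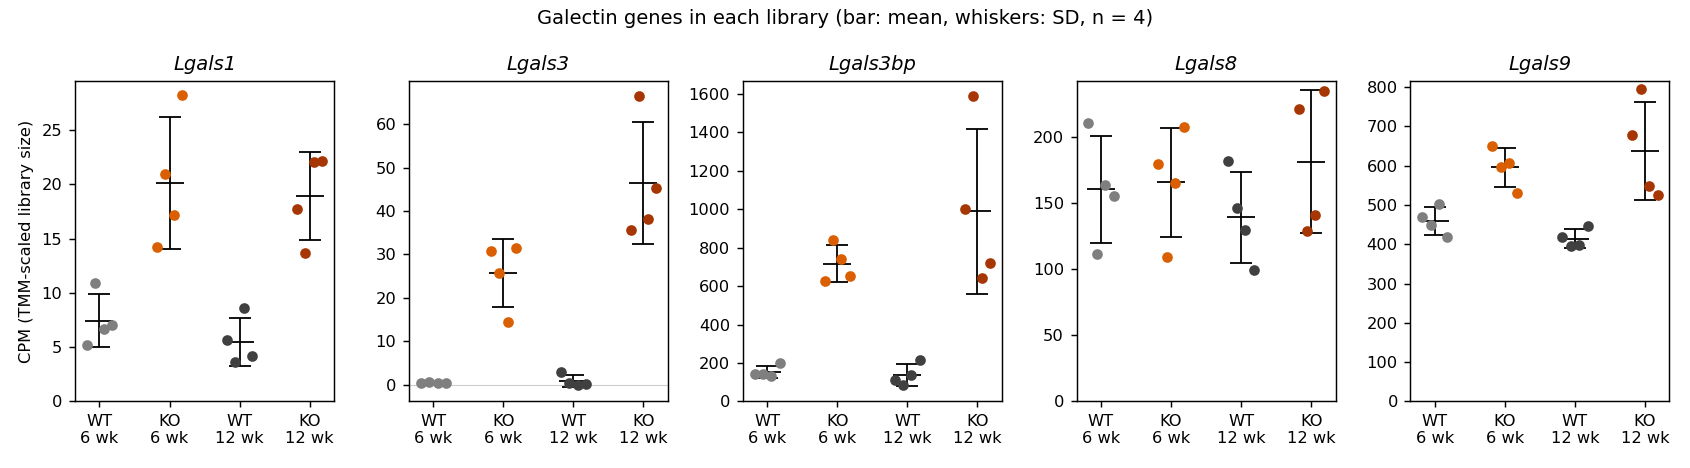
Level of each of the 5 genes (CPM on TMM-scaled library size, linear axes that differ between panels) in each of the 16 libraries; points are libraries, the bar is the mean and the whiskers are the SD of 4 libraries. All KO points lie above all WT points of the same age for Lgals1, Lgals3, Lgals3bp and Lgals9, while the Lgals8 groups overlap.

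Lgals3 encodes galectin 3 and had the largest fold of the 5. In 6-week WT its levels were 0.431, 0.685, 0.316 and 0.243 CPM in replicates 1 to 4, from 4, 6, 4 and 2 counts, and in 6-week KO they were 30.9, 25.8, 14.5 and 31.5 CPM. The WT libraries sat near the detection floor, and the lowest KO library was far above the highest of them. At 12 weeks the WT replicates 3, 4, 5_6 and 8 had 2.92, 0.380, 0 and 0.106 CPM, from 27, 4, 0 and 1 counts, and KO replicates 1 to 4 had 35.6, 66.6, 38.2 and 45.4 CPM. The KO group was again wholly above WT, and WT replicate 3 stood above the other WT libraries. Means were 0.419 ± 0.194 and 25.7 ± 7.86 CPM in WT and KO at 6 weeks (SD, n = 4), a ratio of 61.2, and the fitted difference on the log2 scale was 6.06 ± 0.93 (approximate SE; adjusted p = 0.00284). At 12 weeks they were 0.851 ± 1.39 and 46.4 ± 14.1 CPM, a ratio of 54.5, and the fitted difference was 6.16 ± 0.91 (adjusted p = 0.00103). WT replicate 3 held 27 of the 32 counts of the 12-week WT group (84.4%), and without it the ratio of means was 287 and the log2 change 8.48 (adjusted p = 2.03e-05). Without WT replicates 3 and 8 it was 8.40 (adjusted p = 0.000207), and without WT replicate 5_6, which held 0 counts, it was 5.54 (adjusted p = 0.00106). The size of the Lgals3 fold at 12 weeks therefore rests on a few WT counts, whereas the call held in all 16 refits that left out 1 library, at both ages.

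Galectin 3 is also made by blood monocytes and other macrophages, so markers of such cells are given here for both genotypes. The summed level of 10 monocyte markers (8 with counts) was 6.96 to 20.1 CPM in WT and 8.11 to 31.0 CPM in KO at 6 weeks, groups that overlapped, and 1.08 to 11.4 and 14.7 to 27.7 CPM at 12 weeks, groups that did not. Of the 10 markers, 7 were at 0 in all WT and 5 in all KO libraries at 12 weeks, and Ccr2 and Plac8 made up most of the KO sum. At 6 weeks 8 markers had counts, of which 3 had a higher and 5 a lower mean in KO. At 12 weeks 5 had counts, with 4 means higher and 1 lower in KO. Ccr2, a chemokine receptor, averaged 6.06 CPM in WT and 12.6 in KO at 6 weeks and 4.14 and 9.85 CPM at 12 weeks. Plac8 averaged 0.916 and 2.69 CPM at 6 weeks and 0.749 and 7.93 CPM at 12 weeks, with KO above WT in every library at both ages. Neither passed the edgeR test (adjusted p for Plac8 at 12 weeks = 0.0705).

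Markers of border-associated macrophages, which line brain vessels and membranes, had higher means in KO with 1 exception. All 10 had counts, and the mean of 9 was higher in KO at each age, without overlap for 5 at 6 weeks and 6 at 12 weeks. Among all genes tested, 4.92% at 6 weeks and 5.13% at 12 weeks had KO above WT without overlap. Mrc1, the mannose receptor, averaged 25.8 and 66.9 CPM in WT and KO at 6 weeks and 13.5 and 57.1 CPM at 12 weeks. Cd163, a haemoglobin scavenger receptor, averaged 1.55 and 11.1 CPM at 6 weeks and 0.356 and 11.1 CPM at 12 weeks, and Ms4a7 3.26 and 17.1 CPM and 1.87 and 22.1 CPM. The exception was Stab1, a scavenger receptor and the most abundant of the list, at 229 and 184 CPM at 6 weeks and 216 and 142 CPM at 12 weeks. At 12 weeks every KO library of Stab1 lay below every WT library, by a narrow margin (177.8 against 179.2 CPM). The sum of all 10 overlapped between genotypes (258.9 to 331.0 CPM in WT and 317.4 to 500.0 in KO at 6 weeks, 224.8 to 277.0 and 276.6 to 380.2 at 12 weeks). Without Stab1 it did not, at 60.2 to 103 CPM in WT and 146 to 314 in KO at 6 weeks, and 14.3 to 63.8 and 122 to 202 CPM at 12 weeks. That second sum leaves out the only marker whose mean was lower in KO, so its separation is no result about the whole list. In edgeR 0 of 10 passed at 6 weeks and 1 at 12 weeks, Ms4a7 (adjusted p = 0.0364, and 0.219 in a fit of the 8 libraries of that age alone), whose call held in 9 of 16 refits that left out 1 library and was lost without 6-week WT replicate 4, 6-week KO replicate 1 or 2, 12-week WT replicate 3 or 4 or 12-week KO replicate 2 or 4.

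Of 10 neutrophil markers 8 had counts, with Cxcr2 and Mmp8 at 0 in every library, and nearly all of their sum was Csf3r, a cytokine receptor gene, at 536 and 571 CPM in WT and KO at 6 weeks and 356 and 470.3 CPM at 12 weeks. The other neutrophil markers summed to at most 75.2 CPM in WT, at 6 weeks, and 15.8 CPM in KO, at 12 weeks. Of the 8 neutrophil markers with counts at 6 weeks, 3 had a higher and 5 a lower mean in KO. At 12 weeks 5 had counts, and all 5 means were higher in KO. T and NK cell markers summed to at most 3.74 CPM in any library, with 6 of 10 detected. Microglia markers, all 10 detected, were lower in KO without overlap, at 71750 to 78530 CPM in WT and 59810 to 70250 in KO at 6 weeks, and 65100 to 72740 and 51360 to 54000 at 12 weeks. The astrocyte sum was mostly Slc1a3, a glutamate transporter gene, and ran from 332.5 to 433.3 CPM in WT and 278.8 to 369.5 in KO at 6 weeks, and from 259.6 to 386.2 and 292.6 to 406.5 CPM at 12 weeks. Of the 8 astrocyte markers, 4 had a higher and 4 a lower mean in KO at each age. Gfap, an astrocyte filament gene, was the only astrocyte marker with every KO library above every WT library. That held for 4.92% of all genes tested at 6 weeks and 5.13% at 12 weeks. Gfap means were 0 and 7.27 CPM at 6 weeks and 0.943 and 14.8 CPM at 12 weeks. It did not pass in edgeR (adjusted p = 0.0953 and 0.257). Neuron markers summed to 84.8 to 182 CPM in WT and 69.2 to 158 in KO at 6 weeks, and 124 to 223 and 66.1 to 146.5 at 12 weeks. Oligodendrocyte markers (7 of 8, Olig2 at 0) summed to 309.6 to 336.4 and 277.3 to 341.4 CPM, and to 203.1 to 348.2 and 227.1 to 250.4 CPM. Endothelial and mural markers summed to 53.9 to 81.8 and 11.7 to 44.4 CPM at 6 weeks, lower in KO without overlap. Pecam1, the most abundant, averaged 60.3 and 25.2 CPM and was the only marker lower in KO without overlap. Without it the 6-week sums overlapped, at 8.14 to 11 CPM in WT and 0.862 to 17.8 in KO. Of 7 with counts at 6 weeks, 3 had a higher and 4 a lower mean in KO. At 12 weeks all markers of the list summed to 18.2 to 65.5 and 29.0 to 49.2 CPM. Of 7 with counts at 12 weeks, 2 had a higher and 5 a lower mean in KO. Flt1, with 0 counts in WT and a mean of 6.85 CPM in KO at that age, passed in edgeR (log2 change 9.65, adjusted p = 0.0435). Its call held in 4 of 16 refits that left out 1 library. The part of such cells in the galectin results was not tested.

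**Figure D2:**
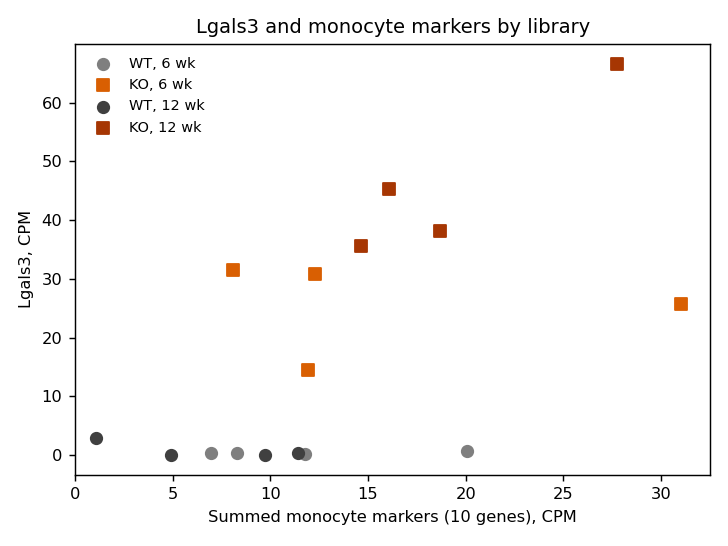
Lgals3 (CPM) against the summed CPM of 10 monocyte markers, 1 point per library, with circles for WT and squares for KO. Lgals3 lies between 14.5 and 66.6 CPM in the 8 KO libraries and at or below 2.92 CPM in the 8 WT libraries, over marker sums that overlap between genotypes at 6 weeks and not at 12 weeks.

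Lgals3bp encodes the secreted glycoprotein that galectin 3 binds, and its KO and WT libraries were widely apart at both ages. At 6 weeks its levels were 143, 142, 131 and 199 CPM in WT replicates 1 to 4 and 629, 841, 740.0 and 652 CPM in KO. At 12 weeks they were 114, 83.8, 138 and 213 CPM in WT replicates 3, 4, 5_6 and 8, and 999.8, 1592, 642 and 722 CPM in KO. The lowest KO library was far above the highest WT library at each age, 629 against 199 CPM and 642 against 213 CPM. Means were 154 ± 30.5 and 715 ± 96.4 CPM at 6 weeks (SD, n = 4), and the log2 rise of the gene was 2.24 ± 0.29 (adjusted p = 0.000771). They were 137 ± 55.3 and 989 ± 430.2 CPM at 12 weeks, and the rise was 2.84 ± 0.29 (adjusted p = 4.59e-05). At 12 weeks KO replicate 2 was the highest library by far, and without it the log2 change was 2.55 (adjusted p = 7.77e-05).

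Lgals1 encodes galectin 1, the galectin made of identical subunits. At 6 weeks its levels were 5.17, 10.96, 6.64 and 7.04 CPM in WT and 14.2, 21.0, 17.2 and 28.3 CPM in KO. At 12 weeks they were 5.62, 3.61, 8.60 and 4.22 CPM in WT and 17.8, 13.7, 22.0 and 22.2 CPM in KO. KO lay above WT at both ages, with the closest libraries, 6-week WT replicate 2 and 6-week KO replicate 1, at 10.96 and 14.2 CPM. The log2 change was 1.46 ± 0.36 at 6 weeks (means 7.45 ± 2.47 and 20.2 ± 6.08 CPM, SD, n = 4), which missed the threshold in edgeR (adjusted p = 0.0940) and passed it in DESeq2 (adjusted p = 0.00681). It was 1.76 ± 0.37 at 12 weeks (means 5.51 ± 2.22 and 18.9 ± 4.03 CPM, adjusted p = 0.0133). The 12-week call was lost without WT replicates 3 and 8 (log2 change 1.58, adjusted p = 0.142) and in a fit of the 8 libraries of that age alone (1.78, adjusted p = 0.106). The pseudogenes Lgals1-ps1 and Lgals1-ps2 had no count in any library.

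Lgals9 encodes galectin 9, a galectin with different sugar-binding domains that binds the checkpoint receptor TIM-3, and it had the smallest spread relative to its mean of the 5 genes in each group. Its levels were 471, 449, 503 and 418 CPM in 6-week WT and 650.4, 596, 608 and 530.3 CPM in 6-week KO. At 12 weeks they were 419, 395, 398 and 446 CPM in WT and 679, 795, 548 and 526 CPM in KO. All KO libraries were above all WT libraries, by a narrow margin at 6 weeks (503 against 530.3 CPM). The log2 change was 0.37 ± 0.12 at 6 weeks (means 460.2 ± 35.6 and 596 ± 49.7 CPM, SD, n = 4), which did not pass (adjusted p = 0.291). It was 0.62 ± 0.12 at 12 weeks (means 415 ± 23.8 and 637 ± 125 CPM), which passed (adjusted p = 0.00914), and in a fit of the 8 libraries of that age alone it did not (0.63, adjusted p = 0.0839).

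Lgals8 encodes galectin 8, known for recruiting the autophagy machinery to damaged membranes, and its groups overlapped at both ages. Levels were 211, 112, 163 and 156 CPM in 6-week WT and 179.5, 109, 165.5 and 208 CPM in 6-week KO. At 12 weeks they were 182, 146, 129.7 and 99.5 CPM in WT and 221, 128.5, 141 and 235 CPM in KO. High and low libraries occurred in every group, and 2 of the 12-week KO libraries, replicates 1 and 4, lay above every WT library of that age. KO exceeded WT by 0.04 ± 0.25 on the log2 scale at the younger age (adjusted p = 1.0) and by 0.35 ± 0.25 at the older (adjusted p = 0.607), and neither value shows that the genotypes are alike. Leaving out 1 library, the 12-week value ran from 0.22 without WT replicate 8 to 0.67 without WT replicate 3 (adjusted p = 0.179), uncalled in all 16 refits. Lgals8 overlaps Heatr1 on the other strand in the annotation. The strand setting of the counting is not given in the sources used here, so the overlap may raise or lower the Lgals8 level. Heatr1 averaged 75.5 and 53.4 CPM in WT and KO at 6 weeks and 44.7 and 68.0 CPM at 12 weeks.

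**Figure D3:**
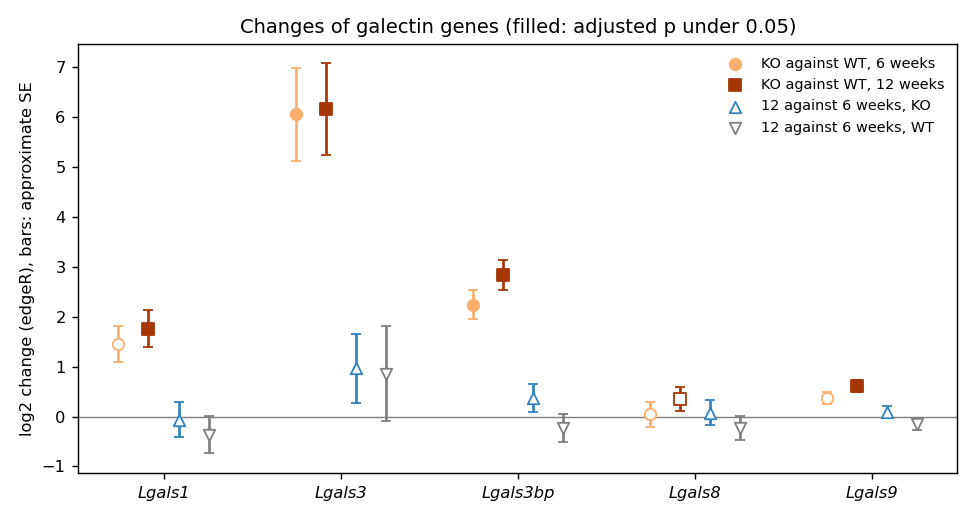
Log2 change of each gene from the edgeR fit (KO against WT at each age, and 12 against 6 weeks in each genotype), with bars of 1 approximate standard error and filled symbols for an adjusted p under 0.05. Lgals3 and Lgals3bp are filled at both ages and Lgals1 and Lgals9 at 12 weeks, while none of the age comparisons is filled.

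No member passed the test of age in either genotype or of the difference between the genotype effects at 12 and 6 weeks. The background was as thin: 0.0234% of all genes passed for age in KO, 0.0117% for age in WT and 0.00585% for the difference. At an unadjusted p under 0.05 edgeR called 1504, 1271 and 810 genes (8.8%, 7.44% and 4.74%) in these 3 comparisons, and DESeq2 called 249, 152 and 55 at the adjusted threshold, none of them a member. Lgals3 in KO was the one member whose age groups did not overlap: its lowest 12-week library, at 35.6 CPM, was above its highest 6-week library, at 31.5 CPM, as for 3.05% of all genes. Its log2 change with age in KO was 0.97 ± 0.70 (adjusted p = 0.810). The exact permutation test gave p = 0.0286 (0.0635 adjusted), with 4 of 4 libraries higher, which restates the lack of overlap. For Lgals3bp the change with age in KO was 0.37 ± 0.29 and in WT -0.22 ± 0.28, and the genotype effect was larger at 12 weeks by 0.60 ± 0.39 on the log2 scale (adjusted p = 1.0). The difference between the genotype effects was 0.31 ± 0.50 for Lgals1, 0.11 ± 1.35 for Lgals3, 0.31 ± 0.35 for Lgals8 and 0.25 ± 0.17 for Lgals9, all with an adjusted p of 1.0. None of these tests passed, so the step from 2 calls at 6 weeks to 4 at 12 weeks is not shown to be a difference between the ages.

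Levels of different genes were compared per kilobase of annotated exon, as CPM per kb. In WT, Lgals9 was the most abundant, at 215 CPM per kb at 6 weeks and 194 at 12 weeks, above every library of the other 4 genes. Lgals3bp (54.0 and 48.2) and Lgals8 (43.5 and 37.8) followed with overlapping libraries, then Lgals1 (8.25 and 6.10), and Lgals3 was lowest (0.225 and 0.458). In KO the order at the top was open, since Lgals3bp (251 at 6 weeks and 347 at 12 weeks) and Lgals9 (279 and 298) overlapped at both ages. Lgals8 came next in KO (44.9 and 49.2), above Lgals1 (22.3 and 21.0) and Lgals3 (13.8 and 25.0). The libraries of Lgals1 and Lgals3 overlapped at both ages in KO, as did those of Lgals8 and Lgals1 at 6 weeks and of Lgals8 and Lgals3 at 12 weeks. Lgals3 was thus the least abundant member in WT and near the level of Lgals1 in KO. Exon lengths came from GENCODE M21 on GRCm38, not the GRCm39 build of the counts, so these levels are approximate.

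**Figure D4:**
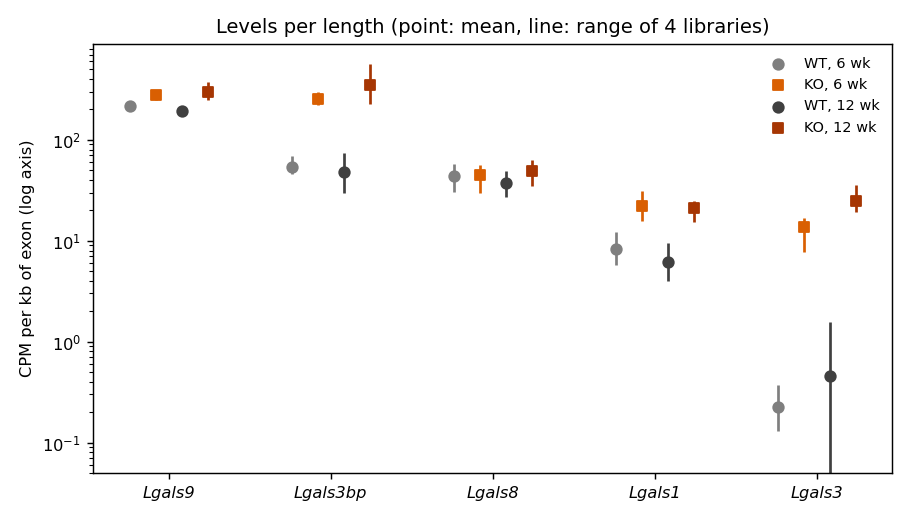
Level of each gene per length (CPM per kb of exon, log axis) in the 4 groups; points are means and lines span the lowest to the highest of 4 libraries. The line of Lgals3 in 12-week WT runs to the lower edge because 1 library is at 0; Lgals9 tops both WT groups, and the lines of Lgals3bp and Lgals9 overlap in both KO groups.

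Within groups the 5 genes did not vary as 1 unit. KO replicate 2 at 12 weeks had the highest Lgals3, Lgals3bp and Lgals9 of its group and the lowest Lgals1 and Lgals8. With group means taken off, log2 levels over the 16 libraries correlated at 0.58 between Lgals3bp and Lgals9, at -0.57 between Lgals1 and Lgals9 and at -0.47 between Lgals3bp and Lgals8, and the other 7 pairs lay between -0.26 and 0.25. These values are a description, since all pairs share libraries and depth. Among 9843 genes with a mean of at least 5 CPM, the 4 genes most like Lgals3 by Pearson correlation over 16 libraries were Ch25h (0.973, and 0.899 with group means taken off), Ccl5 (0.973, 0.734), Capg (0.967, 0.644) and Ccl4 (0.960, 0.383). For Lgals3bp they were H2-D1 (0.979, 0.80), Cd69 (0.969, 0.654), Cst7 (0.965, 0.523) and Il2rg (0.964, 0.502). Those most like Lgals9 were Ly6e (0.954, 0.844), Gpr84 (0.913, 0.647), H2-D1 (0.912, 0.812) and Lgals3bp itself (0.903, 0.578). Lgals1 was closest to Iigp1 (0.914, 0.720), Pkm (0.913, 0.505), Ms4a7 (0.909, 0.637) and Oas1a (0.897, 0.438). Lgals8 was closest to Pgrmc1 (0.805, 0.824), Pex2 (0.795, 0.853), Ppwd1 (0.765, 0.774) and Emb (0.762, 0.841). For the 4 genes whose genotype groups did not overlap, the likeness fell once group means were taken off, and for Lgals8 it did not. By Spearman correlation, 1 or 2 of the 4 nearest genes stayed the same for each member.

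None of the other galectin genes was called, and most were hardly read. Of 7 listed, 6 were in the files and 2 were tested, and neither passed at either age. Lgals4 averaged 12.1 and 8.40 CPM in WT and KO at 6 weeks and 10.2 and 10.1 CPM at 12 weeks, with log2 changes of -0.55 ± 0.75 and -0.01 ± 0.75. Lgalsl, which encodes a galectin-like protein, averaged 8.29 and 14.5 CPM at 6 weeks and 7.88 and 7.90 CPM at 12 weeks, with log2 changes of 1.23 ± 0.96 and -0.19 ± 0.92. Lgals7 had 1 count in 6-week KO, 2 in 12-week KO and 0 in WT, while Lgals2, Lgals12 and Grifin had none. The 3-count floor leaves room for levels below 0.381 CPM in any library.

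Of 20 cell-surface and lysosomal glycoproteins known to bind a galectin, 19 were tested. Clec7a rose at both ages, Lag3 rose and Mertk fell at 12 weeks, and the other 16 did not pass at either age. The count was 1 higher and 0 lower at 6 weeks and 2 higher and 1 lower at 12 weeks, next to 0.872% and 2.98% of all genes called in either direction. At an unadjusted p under 0.05 it was 5 and 9 of 19, next to 7.31% and 14.4% of all genes. The list had median log2 changes of 0.16 and 0.28 against -0.02 and -0.03 for all genes. Clec7a, which encodes the beta-glucan receptor Dectin-1, went from 7.86 ± 3.06 CPM in WT to 72.1 ± 40.8 in KO at 6 weeks (SD, n = 4; log2 change 3.01 ± 0.67, adjusted p = 0.0478) and from 6.43 ± 5.16 to 127 ± 29.6 at 12 weeks (4.41 ± 0.70, adjusted p = 0.00184). The 6-week call of Clec7a held in 2 of 16 refits that left out 1 library, those without 12-week WT replicate 3 or 5_6, and the 12-week call held in all 16. Lag3, which encodes a checkpoint receptor of the immunoglobulin family, was at 223 ± 114 CPM in WT and 519.9 ± 102 in KO at 12 weeks (log2 change 1.23 ± 0.29, adjusted p = 0.0291), and its call was lost without WT replicate 3, 4 or 5_6 or KO replicate 1, 2 or 3 of that age. Mertk, which encodes a receptor for the uptake of dying cells, was at 392 ± 61.7 and 279.6 ± 11.01 CPM (log2 change -0.49 ± 0.10, adjusted p = 0.0153), and its call was lost without WT replicate 3 or 8 or KO replicate 2 or 4. The Mertk call was also lost with no filter on low counts and without both 12-week WT replicates 3 and 8.

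Among 23 genes of the response to damaged lysosomes, which repair, tag or clear the lysosomes that galectins mark, edgeR called 0 at both ages. At an unadjusted p under 0.05 it called 0 at 6 weeks and 2 at 12 weeks, where 7.31% and 14.4% of all genes passed, and DESeq2 called 0 and 1 at the adjusted threshold. Median log2 changes were 0.03 and 0.06, next to -0.02 and -0.03 for all genes.

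Among 30 enzymes and transporters that make or cap galectin-binding glycans, 0 passed at 6 weeks in edgeR (2 in DESeq2) and 3 at 12 weeks, next to 0.872% and 2.98% of all genes. At an unadjusted p under 0.05 edgeR called 6 and 8 of 30, next to 7.31% and 14.4% of all genes. Gcnt2, which adds branches to lactosamine chains, rose from 37.7 ± 9.97 CPM in WT to 90.0 ± 10.1 in KO at 12 weeks (SD, n = 4; log2 change 1.26 ± 0.21, adjusted p = 0.00277), and the call held in all 16 refits. Mgat4a, which adds a branch to N-glycans, fell from 235 ± 12.7 to 159 ± 17.0 CPM (log2 change -0.56 ± 0.12, adjusted p = 0.0141), and its call was lost without KO replicate 1 or 3. The Mgat4a call was also lost without both 12-week WT replicates 3 and 8. St3gal6, which adds sialic acid to galactose, fell from 679 ± 72.7 to 495 ± 47.4 CPM (log2 change -0.46 ± 0.10, adjusted p = 0.0169), and its call was lost without WT replicate 3, 4 or 5_6 or KO replicate 1 or 3. In a fit of the 8 libraries of 12 weeks alone, Clec7a and Gcnt2 kept their calls and Lag3, Mertk, Mgat4a and St3gal6 lost them. The median log2 change of the glycan genes was -0.06 at 6 weeks and -0.18 at 12 weeks.

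**Figure D5:**
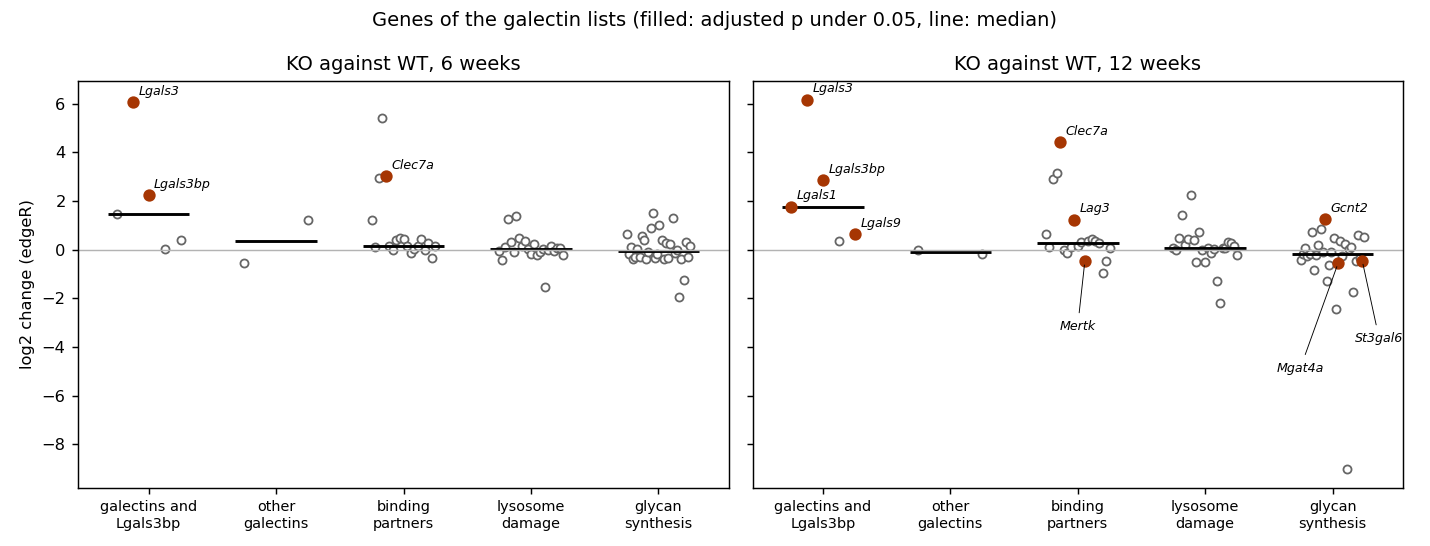
Log2 change, KO against WT, of each tested gene of the 5 lists at 6 weeks (left) and 12 weeks (right), with filled points for an adjusted p under 0.05 and a line at each list's median. The galectin medians are 1.46 and 1.76, and the lowest point at 12 weeks is Neu3, named after its value was seen, which had 0 counts in 12-week KO and 409 in 12-week WT and did not pass the test.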

How the data were processed

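RNA-seq counts of reads per gene were deposited by the authors, 1 file per library. Per the submitters' processing notes, the tools were HTSeq 0.11.0, TopHat, cutadapt 2.10, Picard 2.13.2, SAMtools 1.10 and FastQC 0.11.9, and the build GRCm39. Release of the annotation and strand setting: not given in the sources used here. Counts were fitted in R 4.3.3 with edgeR 4.0.16 (filterByExpr by group, minimum count 10; TMM; robust quasi-likelihood test, two-sided) with 4 group terms and sex, in all 16 libraries, giving 5 comparisons. The threshold was an adjusted p of 0.05 over 17090 genes. The standard error is the absolute log2 change over the square root of F. Log2 CPM for correlations used a prior count of 2. The fit was tested on simulated counts, in which changed genes had larger log2 changes than Lgals8 and Lgals9 had between genotypes here. Changes as small as theirs were not simulated. Alternatives were RLE size factors, DESeq2 1.42.0, other filters, no sex term, fewer libraries and a replicate block.

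Members, 4 pathway lists and 9 marker lists were chosen with earlier results of these data known. The rule for named genes took all members, tested list genes past the threshold (up to 6 a list and direction), galectins with any count and the 4 genes most like each member. Floors of 3 counts cover counting error only, since reads without molecular identifiers are not independent molecules.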

Additional observations from a re-analysis of the deposited data

Results flagged for a closer look

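Lgals3 in 12-week WT replicate 3 was at 2.92 CPM, far above the 0.380, 0 and 0.106 CPM of the other 3 libraries of its group by Dixon's criterion for 4 values. It was the only such value among the 20 groups of member levels checked, and chance flags about 1 in 20.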

How the results depend on the processing

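Lgals3 and Lgals3bp passed the threshold at both ages under every alternative run, and Lgals8 passed under none. Of 594 member values under an alternative, 570 kept direction and side of the threshold. Using the libraries of the compared groups alone, 2 members were called at 12 weeks (Lgals1 1.78 and Lgals9 0.63 lost), and without 12-week WT replicates 3 and 8 Lgals1 was lost (1.58); DESeq2 called Lgals1 at 6 weeks (1.46). The Lgals3 change at 12 weeks was 6.85 in the compared groups alone and 6.90 with a replicate block. Changes of sign were all in uncalled values. Leaving out 1 library, Lgals8 at 6 weeks ran from -0.080 to 0.17, and with age in KO Lgals1 ran from -0.20 to 0.29, Lgals8 from -0.032 to 0.23 and Lgals9 from -0.018 to 0.20. Lgals3 with age in WT ran from -1.79 to 1.37 and was -1.73 without replicates 3 and 8, and its difference between genotype effects ran from -0.43 to 2.61 and was -0.034 with no sex term. Lgals3 had no value with age in WT in the 8 libraries of those groups, where it failed the filter. The cause of these shifts was not tested.

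Binding partners called at 6 weeks (1) were 2 with DESeq2, with no filter and without replicates 3 and 8, and 0 to 1 leaving out 1 library. At 12 weeks (3) they were 6 with DESeq2, 1 in the compared groups alone and 1 to 3 leaving out 1 library. Lysosome genes at 12 weeks (0) were 1 with DESeq2, no filter or no sex term. Glycan genes at 6 weeks (0) were 2 with DESeq2 or no filter, 1 with no sex term and 0 to 1 leaving out 1 library; at 12 weeks (3) they were 1 in the compared groups alone and 1 to 3 leaving out 1 library.

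All genes called at 6 weeks (149) were 360 with DESeq2, 353 with no filter and 82 to 155 leaving out 1 library. At 12 weeks (510) they were 1158, 1073 and 328 to 464, with 204 in the compared groups alone and 307 without replicates 3 and 8. With age in KO (4) they were 249, 204 and 1 to 7, with 16 with no sex term, 0 in the compared groups alone and 10 without replicates 3 and 8. With age in WT (2) they were 152, 194 and 1 to 4, with 0 in the compared groups alone. For the difference (1) they were 55, 132 and 1 to 2, with 2 without replicates 3 and 8.

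Libraries share replicate numbers across groups, and same-numbered libraries did not deviate together (correlations -0.02 to 0.06), nor did each correlate best with its own number. With a replicate block, all genes called were 93 at 6 weeks, 357 at 12 weeks and 0 for age in either genotype, binding partners at 6 weeks were 0, members' calls were unchanged, and Lgals1 with age in KO was 0.10. At these depths Lgals3 in WT lies near the floor of 3 counts.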
